A study of Sus scrofa domesticus with 6 samples.

Results

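The genes followed here through pig lungs before and after transplantation mark the inner lining of vessels or hold it together: PECAM1, CDH5, CLDN5, VWF, KDR, RAMP2, SOX18, PLVAP, EDNRB and CLEC3B. They are 10 of the 33025 features listed in at least 1 of the 6 libraries, taken by their exact names. The study measured RNA of single lung cells in droplets. The control group held 3 libraries of the whole, unsorted cell suspension from the right lung of donor pigs (Sus scrofa domesticus). The ischemia-reperfusion injury (IRI) group came from allografts of an orthotopic single-lung transplant, kept cold for 24 h and then reperfused in the recipient for 8 h. Graft cells were stained for CD45, a surface protein of blood-derived immune cells, and sorted: the IRI CD45- group has 1 library and the IRI CD45+ group has 2. A reperfused graft can hold cells of donor and recipient, which these data do not separate.

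Endothelial cells form a sheet that separates blood or lymph from tissue, and their contacts decide how much fluid and protein crosses it. CDH5 (VE-cadherin) is the adhesion protein of endothelial adherens junctions, CLDN5 (claudin-5) a sealing protein of their tight junctions, and PECAM1 (CD31) an adhesion molecule of the cell border. KDR is the main signalling receptor for VEGF-A, RAMP2 the partner that makes CALCRL a receptor for adrenomedullin, and EDNRB an endothelin receptor that in lung marks a specialised capillary cell called the aerocyte. VWF is the stored clotting protein von Willebrand factor, PLVAP builds the diaphragms of fenestrae and caveolae, SOX18 is a transcription factor of vascular and lymphatic development, and CLEC3B encodes tetranectin, a plasminogen-binding protein that fibroblasts make too.

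Cells were chosen by their own counts of unique molecular identifiers (UMIs, 1 for each captured RNA molecule). Levels are given as CPM, the UMIs of a gene scaled to a common total of the cells summed. A blood endothelial cell had 3 or more UMIs over PECAM1, CDH5, CLDN5 and VWF and no UMI of PROX1, the lymphatic master regulator. A lymphatic endothelial cell met the same minimum with at least 1 PROX1 UMI. The blood gate held 217, 289 and 398 cells in control libraries 1, 2 and 3 and 466 in the IRI CD45- library, and the lymphatic gate 8, 31, 31 and 17. Since 4 of the 10 genes define this gate, their levels in it are a description. An independent gate therefore took cells with 3 or more UMIs over at least 2 of 10 other endothelial genes (EGFL7, TIE1, ESAM, ROBO4, ERG, EMCN, CD93, TEK, SOX17 and FLT1) and no PROX1. It held 120, 154 and 262 control cells and 172 IRI CD45- cells, of which 77.5%, 76.6%, 83.6% and 79.7% were also in the blood gate, and these were 42.9%, 40.8%, 55.0% and 29.4% of the blood gate.

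The libraries hold 19098567 to 40647380 UMIs, and gated cells differ between groups in ways that bear on every value. Median UMIs per cell of the blood gate were 5445, 4444 and 3197 for the controls, against 1459 for the IRI CD45- library, so that 3 UMIs are a larger share of an IRI cell. Cells with at least 3 of the 8 markers of some other cell class made up 43.8%, 38.4% and 29.9% of the blood gate in the controls and 43.8% in the IRI library. They were mostly immune cells and fibroblasts in the controls and alveolar type 2 cells, the surfactant-making cells, in the IRI library. These cells held 79.7%, 72.2% and 67.8% of the blood gate's UMIs in the controls and 66.4% in the IRI library. Summed values of that gate therefore rest mostly on them. The 7 listed alveolar type 2 markers summed to 15.7 to 182 CPM in the gated control cells, with 1 marker at most at 0, and to 42902 in the gated IRI cells, with none at 0. PTPRC, which encodes CD45, was seen in 22.9% to 41.9% of gated control cells and 7.73% of gated IRI cells. The independent gate was mixed too. Its cells with 3 or more other-class markers held 49.2%, 61.6% and 44.7% of UMIs in the controls and 58.4% in the IRI library. Alveolar type 2 markers of that gate summed to 26.3, 91.8 and 21.9 CPM in the controls and to 36636 in the IRI library. A strict set was added after seeing this: it leaves out cells with 3 or more markers of another class and calls a cell lymphatic from 2 or more UMIs over PROX1, CCL21 and MMRN1. It holds 97, 95 and 186 control and 224 IRI blood cells, and 31, 109, 122 and 48 lymphatic cells. Even in the strict blood cells SFTPC, the type 2 surfactant gene, stood at 3.42 to 12.1 CPM in the controls and at 9390 in the IRI library. Since the grafts alone were sorted, an effect of sorting and one of the injury cannot be told apart. The control and IRI libraries list different features: EGFL7 is not among those of the IRI libraries, and SOX18 is listed in the controls and the IRI CD45- library only. Gated cells of the CD45+ libraries (87 and 135) showed PTPRC in 92.0% and 84.4% of cells and were not used as endothelium.

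Cells just outside the blood gate, with 2 gate UMIs, held less RAMP2, KDR, SOX18 and EDNRB than cells with 3 in all 4 libraries, but not always less PLVAP or CLEC3B. RAMP2 went from 25.8, 47.1 and 61.8 CPM in control cells with 2 gate UMIs to 67.6, 111 and 92.5 in those with 3, and from 15.5 to 25.6 in IRI cells. KDR went from 2.04, 4.71 and 5.28 to 11.3, 13.5 and 11.2 in the controls and from 96.7 to 202 in the IRI library. PLVAP went the other way in control library 1 (23.1 to 20.9) and in the IRI library (12.1 to no UMI), and CLEC3B in control library 2 (250 to 67.4). Of the cells with 3 gate UMIs, 5.66%, 9.72% and 10.8% of control cells and 12.4% of IRI cells also met the independent gate.

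In control lungs the 10 genes were not alike in how closely they kept to endothelium. CDH5 and CLDN5 helped to choose the endothelial cells, so their contrast with other cells is partly set by the gate. Strict blood endothelial cells averaged 560 ± 221 and 777 ± 274 CPM (SD, n = 3). Against this stood at most 1.05 and 1.69 in any control library's T- or NK-like cells. Its macrophage- or monocyte-like cells held at most 1.24 and 1.15. Cells in these other classes are, by construction, under the gate minimum, which limits those values for the 4 gate genes. SOX18 behaved likewise without being in the gate, with 76.4 ± 21.5 in strict blood cells and no UMI in the macrophage- or monocyte-like cells of any control. RAMP2 had a second site: macrophage- or monocyte-like cells held 181, 171 and 298 CPM, below the 1063 ± 369 of strict blood endothelium but far above the 1.21 to 4.28 of T- or NK-like cells. PLVAP stood at 58.9, 62.5 and 79.3 in T- or NK-like cells and at 43.6, 23.8 and 106 in macrophage- or monocyte-like cells, while strict lymphatic cells had only 22.8, 2.54 and 34.1. EDNRB was high in smooth muscle- or pericyte-like cells, at 170, 132 and 213, a level that overlapped the 558, 190 and 608 of strict blood endothelium. CLEC3B in fibroblast-like cells ranged from 254 to 1176 and overlapped the 1000 to 1737 of strict blood endothelium and the 560 to 957 of lymphatic cells. PECAM1 had a low level in every control library's T- or NK-, B-, plasma-, macrophage- or mast-like cells, between 11.9 and 53.5.

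**Figure D1:**
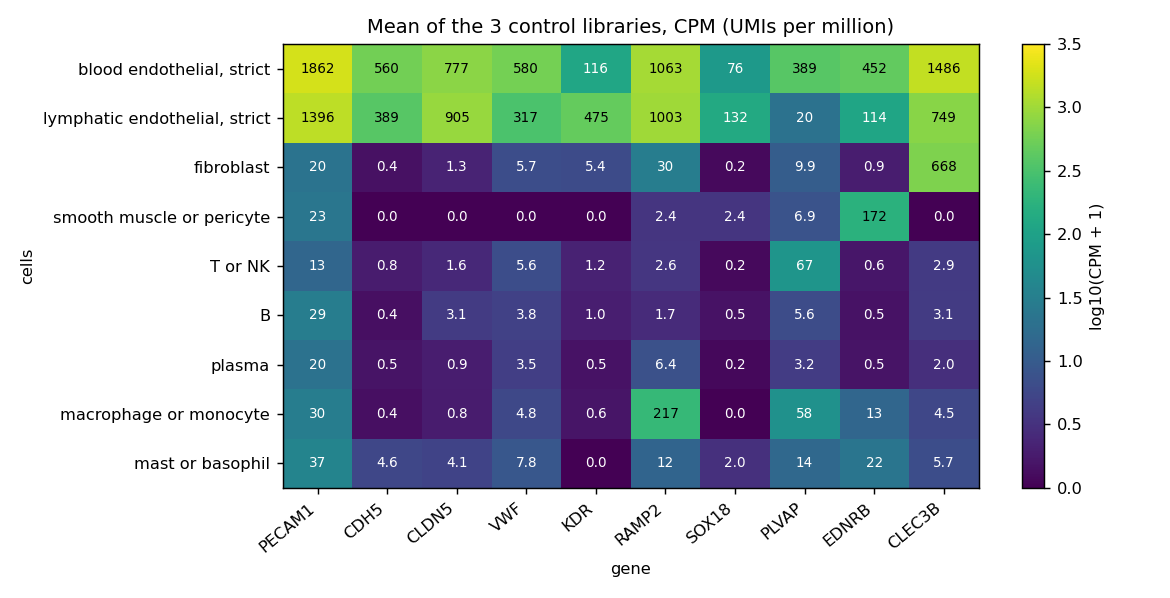
Heat map of the mean over the 3 control libraries, in CPM, for each gene (columns) in strict blood and lymphatic endothelial cells and in 7 other cell classes (rows); colour is log10(CPM + 1) and the printed number is the mean. RAMP2 in macrophage- or monocyte-like cells (217), EDNRB in smooth muscle- or pericyte-like cells (172) and CLEC3B in fibroblast-like cells (668) stand out from the otherwise low rows below the endothelium.

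PLVAP and EDNRB also parted within the blood endothelium. When control cells of the gate without other-class markers were grouped by at least 2 vessel markers that are not among the 10 genes, the 21 cells with aerocyte markers held 1777 CPM of EDNRB (102 UMIs) and 17.4 of PLVAP (1 UMI), summed over libraries. The 33 cells with venous markers were the mirror image, with 68.6 of EDNRB (11 UMIs) and 593 of PLVAP (95 UMIs). PLVAP stood at 591 in the 43 cells with arterial markers, level with the venous ones, and at 397 in the 33 with general capillary markers. VWF was also low with aerocyte markers (69.7) and highest with venous ones (1491), but was lower with arterial markers (746) than with general capillary ones (928). CLDN5 was at 1716 in cells with arterial markers, against 755 in those with venous markers. CLEC3B stood highest with general capillary markers, at 2756, and RAMP2 spanned only 1347 to 1686 over these blood vessel groups. These sums are of few cells, 16 of the 21 with aerocyte markers come from control library 3, and no test was made. Cell by cell in the strict blood set, 31, 17 and 70 control cells had UMIs of EDNRB alone, 19, 19 and 49 of PLVAP alone, and 10, 7 and 13 of both. In the IRI library the same counts were 31 with EDNRB alone, 4 with PLVAP alone and 1 with both. These counts were set against no expected value and do not by themselves show that the genes avoid each other.

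Between blood and lymphatic endothelium of the control lungs, 3 genes stood lower on the blood side, KDR by the most. With the PROX1 division KDR stood at 50.1, 87.9 and 89.6 CPM in blood cells and at 257, 221 and 560 in lymphatic cells, without overlap. The log2 difference, blood minus lymphatic, was -2.04 ± 0.32 (SE; adjusted p = 0.0016, edgeR quasi-likelihood test with the library as a block and Benjamini-Hochberg adjustment over all genes). Of the 6 members outside the gate genes 3 were called, all lower in blood cells, where 5.86% of all 9934 genes tested were called (2.2% higher and 3.65% lower in blood cells). The others were RAMP2 (-0.97 ± 0.21) and SOX18 (-1.87 ± 0.44), with adjusted p of 0.012 and 0.019 in the edgeR test. PROX1 is sparsely captured, and the blood side of this division still held 26, 68 and 75 control cells with 10 or more UMIs of the lymphatic chemokine CCL21. On the lymphatic side, cells with 3 or more other-class markers held 53.7%, 46.7% and 6.74% of UMIs. That is less than on the blood side in each control library. Control library 1 enters the lymphatic side with 8 cells only. The edgeR test called 0 of the 6 members without control library 3 (4 at an unadjusted p under 0.05), 1 without control library 1 and 4 without control library 2. Over all genes it called 38 higher and 66 lower of 10072 without control library 3. These counts were 62 and 136 of 10222 without control library 1, and 540 and 378 of 10224 without control library 2.

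The strict division gave another picture, with PLVAP rather than RAMP2 among the genes that separate the vessels. PLVAP was at 282, 342 and 542 CPM in strict blood cells and at 22.8, 2.54 and 34.1 in strict lymphatic cells. Its log2 difference was 4.46 ± 0.40 (SE; edgeR adjusted p = 3.9e-09), the largest of the 6. KDR kept its lymphatic side, with 133, 82.0 and 133 against 501, 449 and 475 (log2 difference -2.0 ± 0.26; edgeR adjusted p = 6.3e-07). EDNRB (1.87 ± 0.39; edgeR adjusted p = 0.0024) and CLEC3B (1.03 ± 0.19; edgeR adjusted p = 9.6e-05) were higher in blood cells. RAMP2 and SOX18 no longer passed, with 0.09 ± 0.21 and -0.72 ± 0.30. Here 4 of 6 members were called against 24.5% of all genes tested, 3 of them higher in blood cells (12.4% of all genes) and 1 lower (12.1%).

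**Figure D2:**
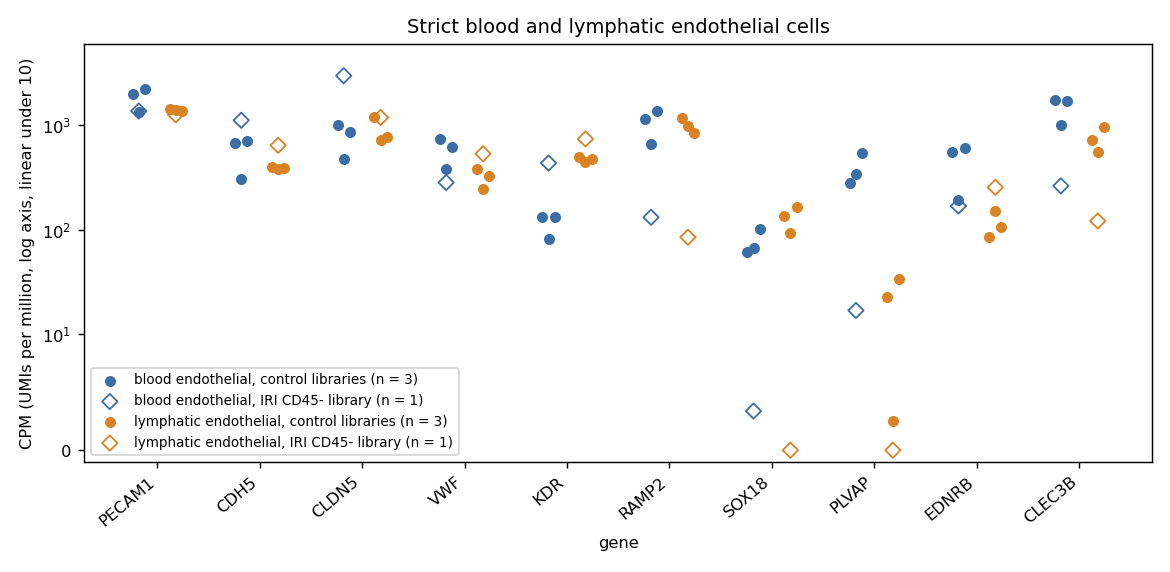
CPM (log axis, linear under 10) of each gene in strict blood (blue) and strict lymphatic (orange) endothelial cells; filled circles are the 3 control libraries and open diamonds the 1 IRI CD45- library. PLVAP separates the control blood cells (282 to 542) from the lymphatic ones (2.54 to 34.1), KDR does so in the other direction, and RAMP2 and CLEC3B of the IRI library lie under the controls in both.

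After cold storage and reperfusion, the blood endothelium of the IRI CD45- library carried more KDR and CLDN5 RNA and, less firmly, more CDH5, and less RAMP2, PLVAP, SOX18 and CLEC3B than the controls. PECAM1, VWF and EDNRB did not pass the test in the independent gate. In the independent gate 7 of the 10 genes were called, 3 higher and 4 lower, where 22.2% of the 10752 genes tested were called (11.2% higher and 11% lower). In the blood gate 4 of the 6 members that did not define it were called, 1 higher and 3 lower, against 33.4% of 13073 genes (16.2% higher and 17.2% lower). With EGFL7 left out, the independent gate held 99, 117 and 207 control cells and 172 IRI cells. There 6 of the 10 genes were called, 2 higher and 4 lower, where 1138 of all 9655 genes tested were called higher and 1048 lower. In strict cells of the independent gate 7 of the 10 were called, 2 higher and 5 lower, against 15.1% of genes (7.94% higher and 7.19% lower), and in strict cells of the blood gate 5 of 6 were, 4 of them lower, against 21.5% of genes (10.4% lower). The labels do not say which libraries come from the same pair of lungs. The single IRI CD45- library is assumed to vary like the controls. The p-values therefore rest on the spread between the control libraries and hold no measure of the spread between grafts. Counting intervals of the IRI CD45- library cover counting error only.

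**Figure D3:**
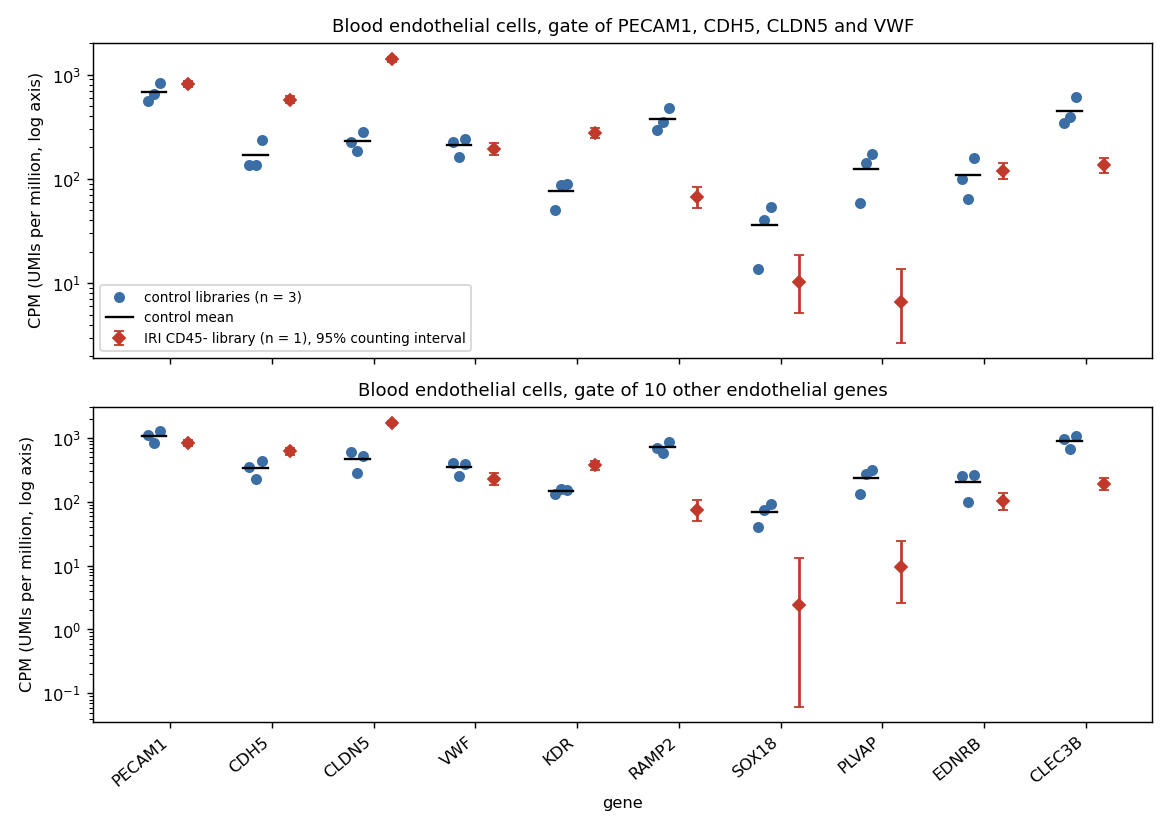
CPM (log axis) of each gene in the blood gate (top) and the independent gate (bottom); circles are the 3 control libraries, bars their mean, and diamonds the 1 IRI CD45- library with its 95% counting interval. CLDN5 and KDR lie above every control and RAMP2, PLVAP, SOX18 and CLEC3B below every control in both gates.

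Among the junction genes, CLDN5 (chr14:51161490-51162382, assembly Sscrofa11.1) showed the clearest rise. It stood at 600, 280 and 516 CPM in the independent gate of the controls and at 1695 in that of the IRI library (713 UMIs). The IRI value was above all 3 controls, and the log2 change was 2.00 ± 0.35 (SE; edgeR adjusted p = 0.0064). The rise was 1.08 ± 0.29 when every cell was thinned to 1000 UMIs (edgeR adjusted p = 0.0016), and 1.75 ± 0.32 in strict cells of the same gate (edgeR adjusted p = 0.00052). Without control library 3 it was 2.09, with an edgeR adjusted p of 0.054. In the blood gate, where CLDN5 helped to choose the cells, it read 225, 184 and 282 in the controls and 1402 in the IRI library.

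CDH5 (chr6:27108560-27142145) stood at 348, 227 and 432 CPM in the independent gate of the controls and at 616 in the IRI library. That is above every control, by 1.01 ± 0.32 on the log2 scale (SE; edgeR adjusted p = 0.046). The call was lost in 7 of 14 alternatives, library totals without TMM among them (0.74; edgeR adjusted p = 0.12): thinned to 1000 UMIs the difference was 0.05 ± 0.35 and in strict cells 0.61 ± 0.37, with edgeR adjusted p of 0.92 and 0.27. PECAM1 (chr12:14667643-14723296, where the RefSeq table also places LOC110255989) stood at 1102, 823 and 1292 in the controls and 832 in the IRI library, within their range. Its log2 change was -0.23 ± 0.26 (edgeR adjusted p = 0.54) and -1.01 ± 0.31 after thinning (edgeR adjusted p = 0.0056). VWF (chr5:64516627-64655938) was at 399, 252 and 386 in the controls and at 228 in the IRI library, below each of them, with a log2 change of -0.46 ± 0.33 (edgeR adjusted p = 0.33). In strict cells it read -1.17 ± 0.41 (edgeR adjusted p = 0.055), and -1.33 when EGFL7 was also left out of the gate, which passed (edgeR adjusted p = 0.038). Strict blood cells had 737, 381 and 620 against 283 for VWF, and strict lymphatic cells 381, 243 and 326 against 533.

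Of the 3 receptor genes, KDR (chr8:41809116-41856379) went up, RAMP2 went down and EDNRB depended on the cells chosen. KDR stood at 131, 155 and 154 CPM in the independent gate of the controls, a narrow range, and at 373 in the IRI library. Its log2 change was 1.48 ± 0.27 (SE; edgeR adjusted p = 0.0032), and 1.98 ± 0.30 in the blood gate (edgeR adjusted p = 0.0028). The size in the blood gate ranged from 0.86 after thinning (edgeR adjusted p = 0.041) to 3.08 with lymphatic cells divided off by PROX1, CCL21 and MMRN1 (edgeR adjusted p = 0.00027). In the independent gate it ranged from 0.93, without cells of other-class markers, to 1.93 in strict cells. Of cells thinned to 1000 UMIs, 22.0%, 22.2% and 19.0% of control cells and 45.0% of IRI cells (27 of 60; exact 95% interval 32.1% to 58.4%) had a KDR UMI. Before thinning the shares overlapped, at 35.8% to 42.2% in the controls and 41.9% in the IRI library. T- or NK-like cells should lack the gene. Their thinned share was 0%, 0.13% and 0.57% in the controls and 1.39% in the IRI library. Of the 172 IRI cells of the independent gate only 3 were T- or NK-like, against 34 alveolar type 2-like and 11 secretory airway-like cells. Cells with 1 blood-gate UMI held 3.00, 0.72 and 4.51 CPM of KDR in the controls and 43.5 in the IRI library. The part of cells other than endothelium in the KDR rise was not tested.

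RAMP2 (chr12:20092204-20094426) fell from 701, 570 and 851 CPM in the independent gate of the controls to 73.7 in the IRI library (31 UMIs). The controls, 707 ± 141 (SD, n = 3), lay far above it, and their pooled level was 9.68 times the IRI level (95% counting interval 6.80 to 14.3). The log2 change was -3.13 ± 0.35 (SE; edgeR adjusted p = 0.00016). After thinning 80.5%, 77.8% and 75.2% of control cells had a RAMP2 UMI and 8.33% of IRI cells did (5 of 60; exact 95% interval 2.76% to 18.4%); the unthinned shares were 78.3%, 83.1%, 82.4% and 14.0%. T- or NK-like cells stayed at 0.67% or below in the controls after thinning. RAMP2, KDR and CLEC3B kept their direction and their call under every alternative tried for both gates.

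EDNRB (chr11:50073300-50102879) had no stable direction. In the blood gate it read 100, 63.7 and 160 CPM in the controls and 119 in the IRI library, inside their range (log2 change 0.26 ± 0.49; edgeR adjusted p = 0.71). The independent gate gave 254, 99.1 and 263 against 102 (-0.86 ± 0.59; edgeR adjusted p = 0.33). Strict cells of the independent gate gave 581, 225 and 579 against 95.2, below each control (-2.28 ± 0.60; edgeR adjusted p = 0.016), and thinned cells -2.25 ± 0.57 (edgeR adjusted p = 0.00068). Control library 2 is the low one in each of these sets.

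SOX18 (chr17:62869868-62871758, inside the span of TCEA2) is the one transcription factor of the set. The independent gate held 34, 91 and 127 UMIs of it in the controls, or 40.7, 73.9 and 92.6 CPM, and 1 UMI, or 2.38 CPM, in the IRI library. The ratio of pooled controls to IRI was 30.8, with a 95% counting interval of 5.48 to 1223 (edgeR adjusted p = 0.0064). In the blood gate 11 IRI UMIs (10.3 CPM) stood against 13.7, 40.3 and 53.8, and the change of -1.68 ± 0.96 did not pass (edgeR adjusted p = 0.23). Whether strand was used in counting is not given in the sources used here, so reads of SOX18 and TCEA2 may not be separable.

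PLVAP (chr2:60324565-60344450), the diaphragm gene, had 109, 334 and 429 UMIs in the independent gate of the controls, or 131, 271 and 313 CPM, and 4 UMIs, or 9.51 CPM, in the IRI library. The IRI library lay under all controls, and the pooled controls were 26.7 times higher (95% counting interval 10.4 to 98.1). The log2 change was -4.50 ± 0.76 (SE; edgeR adjusted p = 0.0044), and -4.12 ± 1.02 in the blood gate (edgeR adjusted p = 0.037). Thinned cells with a PLVAP UMI were 19.5%, 24.4% and 27.3% in the controls and 1.67% in the IRI library (1 of 60; exact 95% interval 0.042% to 8.94%). T- or NK-like control cells showed 5.18%, 4.97% and 8.81%, so a part of the control level is also met outside endothelium. The call was lost with at least 5 gate UMIs (-4.58 in the independent gate, edgeR adjusted p = 0.10) and, in the blood gate, without control library 2 (-3.99, edgeR adjusted p = 0.064).

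CLEC3B (chr13:28219241-28229113) stood at 952, 678 and 1076 CPM in the independent gate of the controls and at 190 in the IRI library. The IRI level was below every control by -2.11 ± 0.32 on the log2 scale (SE; edgeR adjusted p = 0.0011), and by -1.59 ± 0.35 in the blood gate (edgeR adjusted p = 0.014). After thinning 97.6%, 60.0% and 69.4% of control cells and 18 of 60 IRI cells had a UMI, against at most 1.21% of T- or NK-like control cells.

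**Figure D4:**
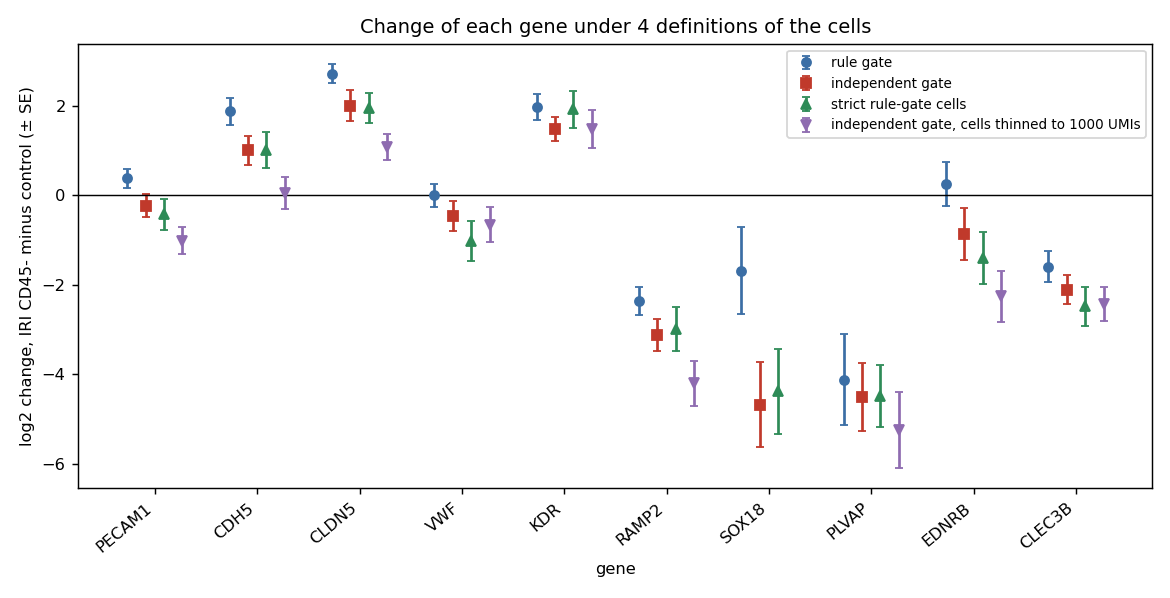
Log2 change, IRI CD45- minus control, with its SE, for each gene under 4 definitions of the cells: the blood gate (circles), the independent gate (squares), strict cells of the blood gate (upward triangles) and cells of the independent gate thinned to 1000 UMIs (downward triangles); SOX18 has no thinned value. KDR and CLDN5 lie above 0 and RAMP2, PLVAP and CLEC3B below 0 under all 4, while PECAM1 and EDNRB change sign between them and CDH5 nears 0 after thinning.

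In lymphatic endothelium RAMP2 and CLEC3B fell as well. The lymphatic gate by PROX1 had too few cells for a test (8 in control library 1 and 17 in the IRI library), so cells were divided by PROX1, CCL21 and MMRN1, giving 43, 116 and 134 control and 87 IRI cells. RAMP2 read 525, 782 and 693 CPM in the controls and 93.8 in the IRI library, and CLEC3B 344, 414 and 763 against 81.6, both under every control. The log2 changes were -2.75 ± 0.45 for RAMP2 and -2.56 ± 0.58 for CLEC3B, with edgeR adjusted p of 0.0012 and 0.012. These were 2 of the 6 members tested, where 13.9% of 8226 genes were called (7.09% higher and 6.82% lower). KDR, at 199, 362 and 370 against 363, lay within the controls (0.30 ± 0.43; edgeR adjusted p = 0.66). SOX18 stood at 48.8, 71.8 and 138 against 28.6 (-1.53 ± 0.73; edgeR adjusted p = 0.18), and EDNRB at 61.0, 120 and 93.6 against 179 (1.05 ± 0.44; edgeR adjusted p = 0.12). PLVAP had no UMI in the IRI cells, at least 3.62-fold lower than the pooled controls with a floor of 3 counts in the IRI library. Its log2 change of -7.41 did not pass the edgeR test. In the 48 strict lymphatic cells of the IRI library SOX18 had no UMI either, at least 3.75-fold lower than the controls. Of the lymphatic identity genes in the same strict cells, LYVE1 stood at 2533 to 2715 in the controls and 267 in the IRI library, and CCL21 at 7392 to 11951 and 12375.

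Whether blood and lymphatic cells changed by different amounts was tested as an interaction. KDR was the only one of the 6 members called, where 0.731% of 11085 genes were called (0.686% higher and 0.0451% lower). Its blood-side levels under the same division were 24.2, 30.7 and 44.3 CPM in the controls and 264 in the IRI library. The blood change exceeded the lymphatic change by 2.92 ± 0.43 on the log2 scale (edgeR adjusted p = 0.0063). In strict cells that difference was 1.44 ± 0.51 (edgeR adjusted p = 0.21), and KDR rose in strict blood cells from 133, 82.0 and 133 to 435 while lymphatic cells read 501, 449 and 475 against 739. After thinning, KDR lost its call (1.52; edgeR adjusted p = 0.40), and EDNRB was called in the other direction (-4.67; edgeR adjusted p = 1.6e-05), against -0.85 unthinned (edgeR adjusted p = 0.76). The thinned fit had only 18 lymphatic cells in control library 1. For RAMP2 the difference was 0.59 ± 0.48 (edgeR adjusted p = 0.69) and for CLEC3B 1.22 ± 0.44 (edgeR adjusted p = 0.30).

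Outside endothelium, 3 of the genes that were low in IRI endothelium were also lower in immune cells of the CD45+ libraries. In macrophage- or monocyte-like cells RAMP2 stood at 181, 171 and 298 CPM in the controls and at 24.6 and 48.0 in the CD45+ libraries, without overlap (log2 change -2.29 ± 0.39; edgeR adjusted p = 0.0027). The CD45- library gave 31.4 in its 60 such cells. Of the 4 members outside the gate genes that passed the low-count filter there, RAMP2, EDNRB and CLEC3B were called, all lower, where 39.8% of genes were called (17.4% higher and 22.5% lower). EDNRB and CLEC3B rest on 5 and 1 UMIs in the CD45+ libraries. In T- or NK-like cells PLVAP stood at 58.9, 62.5 and 79.3 in the controls and at 8.70 and 9.16 in the CD45+ libraries, again apart (-2.91 ± 0.16; edgeR adjusted p = 9.6e-09). RAMP2 and CLEC3B were called lower there too, at levels under 5 CPM in every library, so that 3 of the 3 members past the filter outside the gate genes were called, where 64.5% of all genes were (30.8% higher and 33.7% lower). Without control library 2 PLVAP alone passed the filter, and was called. The part that such shared falls have in the endothelial values was not tested.

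Structural cells of the IRI CD45- library did not follow the endothelium for every gene. In fibroblast-like cells CLEC3B stood at 254, 1176 and 574 CPM in the controls and at 754 in the IRI library, within their range (log2 change 0.33 ± 1.15; edgeR adjusted p = 0.86). RAMP2 was lower, at 21.3, 32.3 and 35.6 against 5.70 (4 UMIs; -2.26 ± 0.57; edgeR adjusted p = 0.0070). EDNRB was higher, from at most 2.16 to 11.4 on 8 UMIs (edgeR adjusted p = 0.026), and PLVAP had no UMI in the IRI cells. These were 3 of the 5 members past the filter, where 38.1% of genes were called (18.3% higher and 19.9% lower). In smooth muscle- or pericyte-like cells EDNRB read 170, 132 and 213 in the controls and 25.4 in the IRI library (6 UMIs), below each control (-2.68 ± 0.73; edgeR adjusted p = 0.0021). It was the single member past the filter there, where 25.5% of genes were called (13.7% higher and 11.7% lower); DESeq2 gave an adjusted p of 0.059. KDR reached 69.4 CPM in the 1553 secretory airway-like cells of the IRI library, and the controls had too few such cells (6 to 19) to set beside it.

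**Figure D5:**
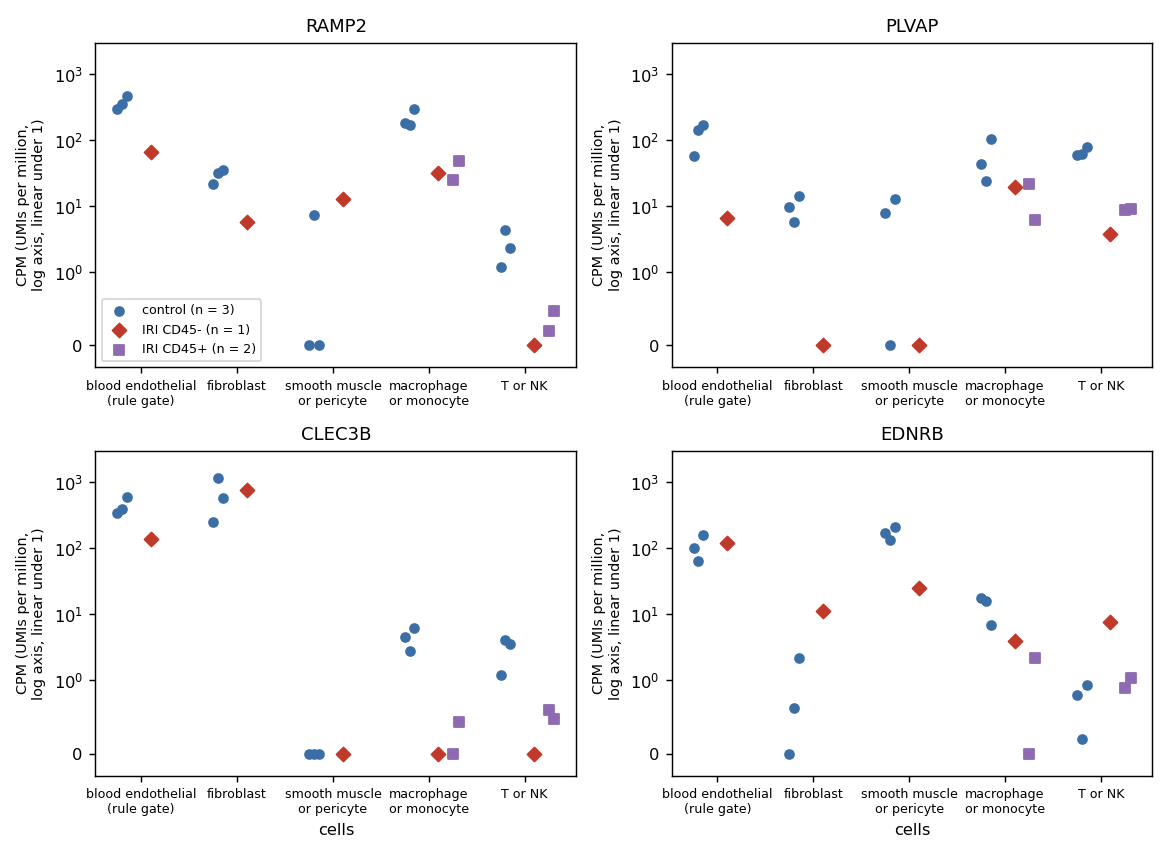
CPM (log axis, linear under 1) of RAMP2, PLVAP, CLEC3B and EDNRB in 5 kinds of cells; circles are the 3 control libraries, diamonds the IRI CD45- library and squares the 2 IRI CD45+ libraries. RAMP2 of macrophage- or monocyte-like cells (171 to 298 in the controls) and PLVAP of T- or NK-like cells (58.9 to 79.3) lie above the IRI libraries, while CLEC3B of fibroblast-like cells (754 in the IRI library) lies among the controls.

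A list of pathway genes for each member was read in the independent gate. There the median log2 change over all genes tested was -0.27 and 22.2% were called (11.2% higher and 11% lower). In strict cells these were -0.29 and 15.1%. The lists also hold members, so that CLDN5, CDH5, RAMP2, PLVAP, KDR and SOX18 are counted in them. Each list's count is a description beside these shares, and leaves out the genes that chose the cells. Of 8 tight junction genes past the filter, 5 rose and 1 fell (median 2.18), CLDN5 among the former. F11R, which encodes the junctional adhesion molecule JAM-A, rose by 2.36 ± 0.41 (edgeR adjusted p = 0.0026) but in strict cells read 1.28 ± 0.77 (edgeR adjusted p = 0.26); epithelial cells use this gene too, the type 2 markers above move with it, and their part was not tested. JAM3 had no UMI in the IRI cells, at least 3.75-fold lower than the pooled controls with a floor of 3 counts. In strict cells 2 of 7 tight junction genes rose and 1 fell, and the median turned to -0.43. Of 8 adherens junction genes, 4 rose (median 0.83): CDH5, CTNNA1 (1.70 ± 0.33), CTNND1 (1.13 ± 0.36) and VCL (1.00 ± 0.33). The last 3 encode catenins and vinculin. None of the 8 was called in strict cells.

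Of RAMP2's relatives, RAMP1 fell and CALCRL was not called. Of 7 genes on the adrenomedullin list 1 rose and 2 fell (median -0.04), and in strict cells 0 and 2 of 6 (median -0.32). RAMP2 itself was among the 2 that fell, and the 1 that rose, RCC1L, stands on the list by mistake. CALCRL, the receptor that RAMP2 serves, stood at 301, 145 and 259 CPM in the controls and at 335 in the IRI library (0.65 ± 0.37; edgeR adjusted p = 0.23). RAMP1, another partner of CALCRL, went from 41.9, 31.7 and 70.7 to 4.76 (2 UMIs; pooled ratio 10.5, 95% counting interval 2.85 to 87.1; edgeR adjusted p = 0.022). RCC1L, on the list although it is known as a mitochondrial factor, was the gene that rose (2.12 ± 0.62; edgeR adjusted p = 0.032).

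Of 9 caveolae and diaphragm genes 4 fell, PLVAP itself among them, and 1 rose (median -0.88). In strict cells 3 of 9 fell and 0 rose (median -0.54). The cavin CAVIN3 went from 113, 117 and 151 to 23.8 CPM (-2.28 ± 0.43; edgeR adjusted p = 0.0037) and EHD2 from 111, 112 and 161 to 45.2 (-1.37 ± 0.40; edgeR adjusted p = 0.030). CAVIN2 fell by 1.28 (edgeR adjusted p = 0.011), but read -0.16 ± 0.43 in strict cells. Of 10 endothelin and nitric oxide genes 0 rose and 1 fell (median -0.87, but 0.22 over the 6 in strict cells, with 1 lower). The gene that fell, EDNRA, the other endothelin receptor, had no UMI in the IRI cells and was at least 2.32-fold lower. Smooth muscle or pericyte markers of this gate summed to 686, 674 and 977 CPM in the controls and 347 in the IRI library. The part of such cells in the EDNRA value was not tested. EDN1, the ligand, read 149, 95.9 and 168 against 252 (1.01 ± 0.33; edgeR adjusted p = 0.050) and NOS3 1.17 ± 0.49 (edgeR adjusted p = 0.11).

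Of 9 VEGF pathway genes 2 rose, KDR itself among them, and 2 fell (median -0.67). In strict cells 2 rose and 1 fell of 8, and the median turned to 0.035. SHB, an adaptor of KDR, rose with it (2.41 ± 0.55; edgeR adjusted p = 0.011), PLCG1, a phospholipase downstream of KDR, fell (-1.93 ± 0.42; edgeR adjusted p = 0.0081), and FLT4, the lymphatic VEGF receptor, fell (-2.80 ± 0.47; edgeR adjusted p = 0.0021). FLT4 and MMRN1, another lymphatic gene that fell (-3.29 ± 0.34; edgeR adjusted p = 9.0e-05), move with the lymphatic cells still in this gate: it held 20, 44 and 48 control cells and 5 IRI cells with 10 or more CCL21 UMIs, whose part was not tested. TFPI, an inhibitor of clotting, was the other of 11 VWF storage and haemostasis genes that fell, on 1 IRI UMI (pooled ratio 14.2, 95% counting interval 2.50 to 565); 0 of the 11 rose. In the blood gate 3 of 10 genes of this list were called higher and 1 lower, and in strict cells of the independent gate 0 of 6 were called. Of 6 angiopoietin-Tie genes none was called in the independent gate, but 3 of 9 were higher in the blood gate and 1 of 3 in strict cells of the independent gate. The nearest, TNIP2, PTPRB, SVEP1 and ANGPTL4, had edgeR adjusted p of 0.18, 0.22, 0.30 and 0.31, and 0 of the 6 had an unadjusted p under 0.05, against 7 of the 9 in the blood gate.

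Of 14 endothelial transcription factors 2 rose and 3 fell, SOX18 itself among the latter (median -0.36). In strict cells 1 rose and 4 fell of 13 (median -0.42). ETS1 went from 181, 143 and 202 to 880 CPM (2.46 ± 0.26; edgeR adjusted p = 9.5e-05), while its family member FLI1 went from 158, 105 and 173 to 23.8 (-2.47 ± 0.47; edgeR adjusted p = 0.0041) and MEF2C from 111, 81.2 and 130 to 23.8 (-2.04 ± 0.46; edgeR adjusted p = 0.011). All 3 were called in the same direction in strict cells. In the Notch pathway DLL4, the ligand of arterial and sprouting endothelium, rose (1.88 ± 0.37; edgeR adjusted p = 0.0047) and HES1, a target gene, fell (-2.19 ± 0.32; edgeR adjusted p = 0.00090), 1 gene each way of 7 (median -0.71). In strict cells 1 rose and 3 fell (median -1.63). Of 13 sphingosine-1-phosphate and small GTPase genes 2 rose and 0 fell: the transporter SPNS2 (2.09 ± 0.39; edgeR adjusted p = 0.0037) and the receptor S1PR1 (1.07 ± 0.28; edgeR adjusted p = 0.020), neither of them called in strict cells. Of 13 vascular surface and basement membrane genes beside PECAM1, MCAM (3.08 ± 0.37; edgeR adjusted p = 0.00023) and ICAM2 (1.55 ± 0.27; edgeR adjusted p = 0.0025) rose, and CD34 fell on 2 IRI UMIs (pooled ratio 8.81, 95% counting interval 2.40 to 73.4; edgeR adjusted p = 0.015).

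Over 42 sums of 1 library and 1 cell class each, the genes whose log2 level was most like the mean of the 10 members were CYYR1 (Pearson's r = 0.950), ARHGEF15 (0.935), ECSCR (0.921), MYCT1 (0.921), FAM110D (0.914), CASKIN2 (0.908), AQP1 (0.905), AFAP1L1 (0.899), ASS1 (0.899) and PTPRB (0.891), of 15107 genes ranked. The members' own r with that mean, which contains them, ran from 0.919 for VWF to 0.747 for EDNRB and 0.501 for PLVAP. The sums share libraries and differ in depth and cell number, and the values are a description.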

How the data were processed

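The 6 deposited matrices are the authors' raw UMI counts for each gene in each cell; their file headers name the tool PISA. Sscrofa11.1, Seurat 5.5.3 and R 4.2.2 stand in the submitters' processing notes, and no source used here names an aligner or annotation. Per the labels, the DNBelab C Series HT kit was used. Filters removed cells under 500 UMIs, under 200 genes or over 20% mitochondrial UMIs, the last without effect in the grafts, for which no mitochondrial gene is listed. Kept cells numbered 4683, 6350 and 6174 (controls), 15017 (CD45- graft cells), and 4532 and 4068 (CD45+ graft cells). Deposited barcodes are running names, so barcodes shared between libraries could not be counted. No doublet caller was used for the main values, and an alternative removed the 6% of cells with the highest Scrublet scores.

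The 10 genes, the gates and the gene lists were chosen with earlier results of these data known. Cells outside the gates took the class of which most of 8 markers had a UMI, with at least 3 and no tie. UMIs were summed per library and kind of cell. For the main values, sums with at least 20 cells in each library were tested in R 4.3.3 by the robust quasi-likelihood method of edgeR 4.0.16 after TMM scaling and filterByExpr. Adjustment was by Benjamini-Hochberg over all genes tested, with a threshold of 0.05, and the comparison of blood with lymphatic control cells had no cell minimum. The alternatives had no cell minimum either. Thinned lymphatic cells of the 3-gene division numbered 18, 60 and 59 in the controls and 32 in the IRI library. CPM values are without TMM. Intervals are exact 95% intervals (Poisson for counts, Clopper-Pearson for shares), and the floor for a count of 0 is 3 UMIs in the IRI library. Immune classes were compared with the CD45+ libraries and structural classes with the CD45- library. These class comparisons and the strict cells were added after seeing the data. Thinning to 1000 UMIs before gating left out 2495 IRI CD45- cells and 0 control cells. Named genes were all 10 members, up to 4 genes with the smallest p of each list (1 of them is not reported here), and the 10 genes most like the members. Gene spans come from the RefSeq table of Sscrofa11.1. Python 3.11.15 was used with scanpy 1.11.5, pandas 2.3.3, scipy 1.17.1, numpy 2.4.6 and matplotlib 3.10.9. Tested on simulated data, edgeR found 4.76% of 2-fold and 58.7% of 4-fold changes at the depth of the blood gate and 1.12% and 20.4% at that of the independent gate. The simulation gave all genes a common dispersion and changed few of them, so these shares are not the recovery in the real data. Alternatives included DESeq2 1.42.0, no TMM, no filter, a gate of at least 5 UMIs and leaving out each replicate.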

Additional observations from a re-analysis of the deposited data

Results flagged for a closer look

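KDR was singled out because its change differed between blood and lymphatic endothelium in a test of the difference itself. With cells divided by PROX1, CCL21 and MMRN1, the blood change exceeded the lymphatic change by 2.92 on the log2 scale (SE 0.43; edgeR adjusted p = 0.0063). KDR was higher in the IRI CD45- library than in 3 of 3 controls among blood cells (24.2, 30.7 and 44.3 against 264 CPM), while among lymphatic cells the IRI value of 363 lay within the 199 to 370 of the controls. The call was lost in strict cells (1.44; edgeR adjusted p = 0.21) and in cells thinned to 1000 UMIs (1.52; edgeR adjusted p = 0.40). Secretory airway-like cells of the IRI library also held KDR, at 69.4 CPM, and cells with secretory airway markers made up 25 of the 466 blood-gate cells there; their part in the difference was not tested.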

How the results depend on the processing

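Of 507 alternative values of single genes, 425 kept direction and side of the threshold, 33 lost the call, 31 gained it and 18 changed sign; where not stated, the cause was not tested. Sign changes were as follows. EDNRB in the blood gate (0.26) read -0.0032 without TMM, -1.34 thinned, -0.70 without cells of other-class markers, -0.048 with the 3-gene lymphatic division and -1.40 in strict cells. KDR in lymphatic cells read -0.29 thinned. For blood against lymphatic cells, RAMP2 read 1.19 thinned, 0.11 without other-class cells and 0.089 in strict cells, EDNRB -0.12 to 0.51 on leaving out a control, and CLEC3B -0.24 with the 3-gene division. Thinned values of this comparison rest on 3, 7 and 2 lymphatic control cells. For the difference of changes, thinning gave -0.026 for RAMP2, 2.36 for SOX18, -3.06 for PLVAP and -0.36 for CLEC3B, a gate of 5 UMIs gave -0.12 for RAMP2, and removing other-class cells 4.2 for SOX18. CLEC3B in fibroblast-like cells read -0.083 to 1.05 on leaving out a control.

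Counts of members called moved as follows: blood against lymphatic (3) to 5 without a filter, 1 thinned, 1 with 5 gate UMIs and 0 to 4 on leaving out a control; the difference of changes (1, KDR) to 0 without other-class cells, and to EDNRB in place of KDR when thinned; T- or NK-like cells (3) to 1 to 4 on leaving out a library; fibroblast-like cells (3) to 1 with DESeq2 and 1 to 2 on leaving out a control; smooth muscle- or pericyte-like cells (1) to 0 with DESeq2. Counts of all genes called moved in the blood gate (4369) to 2658 with DESeq2, 1264 thinned, 2324 without other-class cells, 2666 with 5 gate UMIs and 1554 in strict cells. In the independent gate (2385) they moved to 1252 with DESeq2, 408 thinned, 928 in strict cells and 706 in strict cells without EGFL7. In lymphatic cells (1144) they moved to 536 with DESeq2, 271 thinned, 749 without the top Scrublet scores and 1139 to 1984 on leaving out a control. Blood against lymphatic (582) gave 973 without a filter, 12 thinned, 1526 with the 3-gene division, 1412 in strict cells and 104 to 918 on leaving out a control. The difference of changes (81) gave 37 without TMM, 274 without a filter, 20 thinned, 32 without the top Scrublet scores and 72 to 435 on leaving out a control. Fibroblast-like cells (5176) gave 3175 with DESeq2, and smooth muscle- or pericyte-like cells (1146) 425 with DESeq2 and 716 to 1449 on leaving out a control. Thinned cells and strict cells leave fewer UMIs and genes to test.

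No paired analysis was possible because the IRI CD45- group has 1 library and the labels do not say which libraries pair. Omitting TMM moved the median change of all genes in the blood gate from -0.21 to -0.47. Depth limits SOX18 and PLVAP most, which rest on 1 and 4 UMIs in the IRI cells of the independent gate. In data simulated at that gate's depth 1.12% of 2-fold changes were found, a share that need not hold for the real data.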
